A study of Homo sapiens with 12 samples.

Results

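The cyclins A, B and E, their kinase partners CDK1 and CDK2, and the CDC25 phosphatases that activate those kinases were followed in xenograft tumours treated with palbociclib, an inhibitor of the kinases CDK4 and CDK6. The 10 genes were taken by symbol, with earlier results of these data known, as the rows that GENCODE 29 maps to CCNE1, CCNE2, CDK2, CDC25A, CCNA2, CCNB1, CCNB2, CDK1, CDC25B and CDC25C, out of 58243 human gene identifiers in the files. All 10 passed the filter on low counts. RNA was sequenced from 12 tumours of MCFDCIS, a human breast cell line whose xenografts resemble ductal carcinoma in situ, each started from injected cells under the skin of athymic nude mice, which lack a normal thymus and its T cells. Tumours had 2 weeks to establish. The 4 groups of 3 tumours were palbociclib given daily by oral gavage at 50 mg/kg and sampled at the end of 2 weeks (the stage called initial), vehicle sampled at that stage, palbociclib for 2 weeks followed by a recovery period, and vehicle followed by the same kind of period. The sources used here do not give the length of the recovery period. Each tumour's title ends in a different number with L or R, which the labels do not explain. Whether the tumours of a group grew in separate mice is not stated, so p-values reflect only how much these tumours varied within groups. That spread was estimated over all 12 tumours in 4 groups, not only over the groups compared. The numbers of the 6 palbociclib tumours and of 3 vehicle tumours lie close together, while those of vehicle initial tumour 1 and vehicle recovery tumours 1 and 2 lie far from them. All tumours come from a single cell line.

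Cyclins are the regulatory partners of cyclin-dependent kinases, and their RNAs are made at set times of the cell cycle. Palbociclib acts upstream of the genes described here: CDK4 and CDK6 with D cyclins phosphorylate RB1, which releases E2F transcription factors, and E2F then drives genes of S phase entry such as CCNE1, CCNE2 and CDC25A. Genes needed from S phase to mitosis, such as CCNA2, CCNB1, CCNB2, CDK1 and CDC25C, are also under the DREAM and MuvB complexes. These bind a promoter element called CHR. DREAM represses such genes, while MYBL2 and FOXM1 work with MuvB outside DREAM. The factor NF-Y also acts on many of these genes. In the text CCNE1, CCNE2, CDK2 and CDC25A are called the G1/S genes, and the other 6 the S to M genes.

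The promoters of 6 of these genes are printed because the elements through which the complexes named above act are read in them. The RefSeq promoter table (GRCh38.p14) held 8 of the 10 genes, with 15 transcription starts, and lacked CCNE2 and CDK2. The 250 bases before each start were searched on both strands for the CHR (TTTGAA), for variants of it (TTCGAA or TTTAAA or CTTGAA), for the NF-Y box (CCAAT) and for words like an E2F site (TTGGCGC or TTCGCGC or TTCCCGC or TTGCCGC). The last 150 bases before the start are shown on the strand of the gene, with matches in capitals. A match on the opposite strand appears as its reverse complement, so an NF-Y box can read ATTGG. CCNA2 lies on the minus strand at chr4:121823884-121824033, CCNB1 on the plus strand at chr5:69167000-69167149, CCNB2 on the plus strand at chr15:59104996-59105145 and CDK1, at the second of its 2 starts, on the plus strand at chr10:60778328-60778477. For comparison, CDC25A lies on the minus strand at chr3:48188418-48188567 and CCNE1 on the plus strand at chr19:29811841-29811990. For CDK1 the start with more matches was chosen.
CCNA2: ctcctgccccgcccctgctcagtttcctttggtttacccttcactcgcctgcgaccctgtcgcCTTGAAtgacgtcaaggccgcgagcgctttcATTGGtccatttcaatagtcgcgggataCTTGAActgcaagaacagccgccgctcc
CCNB1: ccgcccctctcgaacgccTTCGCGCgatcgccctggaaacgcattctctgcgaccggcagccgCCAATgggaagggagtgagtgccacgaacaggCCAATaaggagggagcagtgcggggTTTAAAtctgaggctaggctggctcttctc
CCNB2: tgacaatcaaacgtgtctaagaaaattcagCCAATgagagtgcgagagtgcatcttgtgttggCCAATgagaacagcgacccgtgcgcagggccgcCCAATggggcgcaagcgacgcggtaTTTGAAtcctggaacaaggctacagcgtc
CDK1: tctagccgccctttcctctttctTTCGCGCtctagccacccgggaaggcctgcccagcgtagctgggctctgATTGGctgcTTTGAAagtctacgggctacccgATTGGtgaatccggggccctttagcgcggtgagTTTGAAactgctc
CDC25A: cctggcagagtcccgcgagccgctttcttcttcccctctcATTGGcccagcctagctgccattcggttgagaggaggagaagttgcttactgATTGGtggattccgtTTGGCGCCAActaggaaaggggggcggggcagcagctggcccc
CCNE1: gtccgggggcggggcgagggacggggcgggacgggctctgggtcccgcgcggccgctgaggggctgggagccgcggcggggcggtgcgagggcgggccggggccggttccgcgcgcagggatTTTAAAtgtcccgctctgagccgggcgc

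In CCNB2 the CHR stood 29 to 24 bases before the start, and 3 NF-Y boxes stood upstream of it in the printed stretch. CDK1 had CHR matches 69 to 64 and 13 to 8 bases before its second start. CCNB1 had TTTAAA 30 to 25 bases before the start and CCNA2 had CTTGAA 28 to 23 bases before it, so both carry a variant at about the place where CCNB2 has its CHR. CDC25C had TTTGAA 30 to 25 bases before the fourth of its starts and CDC25B had TTCGAA 38 to 33 bases before the third of its starts, each with an NF-Y box upstream. In CDC25A, 2 matches of TTGGCGC overlapped on opposite strands, 43 to 37 and 40 to 34 bases before the start, with 2 NF-Y boxes and no CHR or variant. CCNE1 had TTTAAA at 28 to 23 bases, no NF-Y box and no E2F-like word. Words like an E2F site also stood before S to M genes, namely CCNB1, each start of CDK1, and starts of CDC25C and CDC25B.

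A CHR or variant together with an NF-Y box stood before at least 1 start in 6 of 6 S to M genes and in 0 of the 2 G1/S genes in the table, CCNE1 and CDC25A. CCNA2, CCNB1 and CDC25B count only through a variant, and CCNE1 and CDC25A have 1 start each. The 15 starts are not separate, since stretches searched before starts of CDK1 overlap, as do some of CDC25C. Counted by starts this was 7 of 15, against 10.21% of all 35116 promoters of the table; CDC25B and CDC25C have 4 starts each and so more chances to match. Singly, TTTGAA occurred in 13.32%, any variant in 20.15%, the NF-Y box in 32.01% and any E2F-like word in 10.88% of all promoters. No share by gene was worked out over all genes. All S to M genes but CDC25B were named above as under complexes that bind the CHR, so the count is no separate support for that. These are matches of letters, not measured binding.

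**Figure D1:**
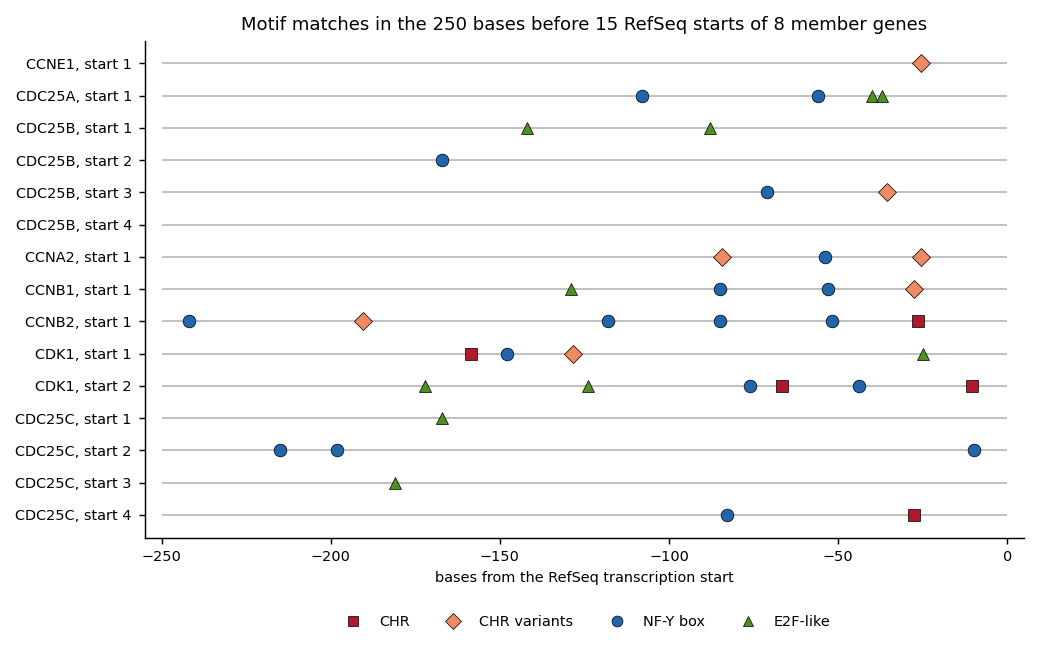
Positions of motif matches (symbols) in the 250 bases before 15 RefSeq transcription starts of 8 genes; the x axis gives bases from the start and each line is 1 start. CHR or variant symbols with an NF-Y box to their left stand near the starts of CCNA2, CCNB1 and CCNB2. They also stand so near the second start of CDK1, the fourth of CDC25C and the third of CDC25B. At the first start of CDK1 a CHR, an NF-Y box and a variant stand farther from the start. CDC25A shows NF-Y boxes and 2 overlapping E2F-like words, and E2F-like words also stand before CCNB1, CDK1, CDC25C and CDC25B.

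Human genes received between 6613880 and 12352064 counts per library, and mouse genes 14.2% to 25.4% of all gene counts. The mouse share was 19.0% to 21.6% in palbociclib recovery tumours and 14.2% to 18.1% in vehicle recovery tumours, with no overlap. At the end of treatment it was 17.0% to 25.4% in palbociclib tumours and 15.5% to 17.4% in vehicle tumours. Vehicle initial libraries 2 and 3 had high mitochondrial shares, 5.32% and 11.2% of human counts against at most 2.64% elsewhere, and vehicle recovery library 2 stood apart at 113.4 on the first principal component. The 7 markers of the tumour epithelium, EPCAM, CDH1, KRT5, KRT14, KRT8, KRT18 and TP63, were present in every library. Their summed level, carried mostly by keratins, was 4859 to 5445 CPM (counts scaled to library size) in palbociclib tumours against 3962 to 4541 CPM in vehicle tumours at the end of treatment, and 4763 to 5966 CPM in palbociclib tumours against 4742 to 5225 CPM in vehicle tumours after recovery. Human copies of 8 markers of other cell types summed to 180.2 to 301.7 CPM in palbociclib tumours against 188.0 to 276.9 CPM in vehicle tumours at the end of treatment, and to 153.1 to 227.3 CPM in palbociclib tumours against 137.5 to 177.4 CPM in vehicle tumours after recovery. PECAM1, an endothelial marker, had 65.0 to 113.8 CPM in palbociclib tumours against 43.4 to 62.6 CPM in vehicle tumours at the end of treatment, without overlap (adjusted p = 0.196 over all genes, edgeR). CDH5, another endothelial marker, was near the floor at that stage. It had 0 to 0.18 CPM in palbociclib tumours against 0 to 0.52 CPM in vehicle tumours, with the lower mean in palbociclib tumours. Nearly all of the sum came from COL3A1 and PECAM1, while CD3E and CD68 had at most 2 counts.

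Levels are compared between genes only per length. Per kilobase of exon (CPM divided by the exon length in kilobases), CCNB1, the main cyclin of mitotic entry, stood first in every group, at 8.91 ± 2.33 in palbociclib tumours and 32.5 ± 7.48 in vehicle tumours at the end of treatment, and at 32.9 ± 3.06 in palbociclib and 46.2 ± 18.8 in vehicle tumours after recovery (SD, n = 3 each). CCNE1 stood last in 3 groups and CCNE2 last in vehicle recovery tumours. Between these, the place of CDC25B differed between the groups. CDC25B was the second, at 7.04 ± 1.08, in palbociclib tumours at the end of treatment and the fifth, at 9.95 ± 0.34, in vehicle tumours of that stage. CDK2, at 3.88 ± 0.99, and CDK1, at 3.67 ± 1.54, overlapped in palbociclib tumours, where 6 genes in a row from CCNB1 down to CDK1 each overlapped the next. In vehicle tumours of that stage CDK1, at 13.4 ± 2.12, stood above CDK2, at 5.70 ± 0.24, without overlap.

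**Figure D2:**
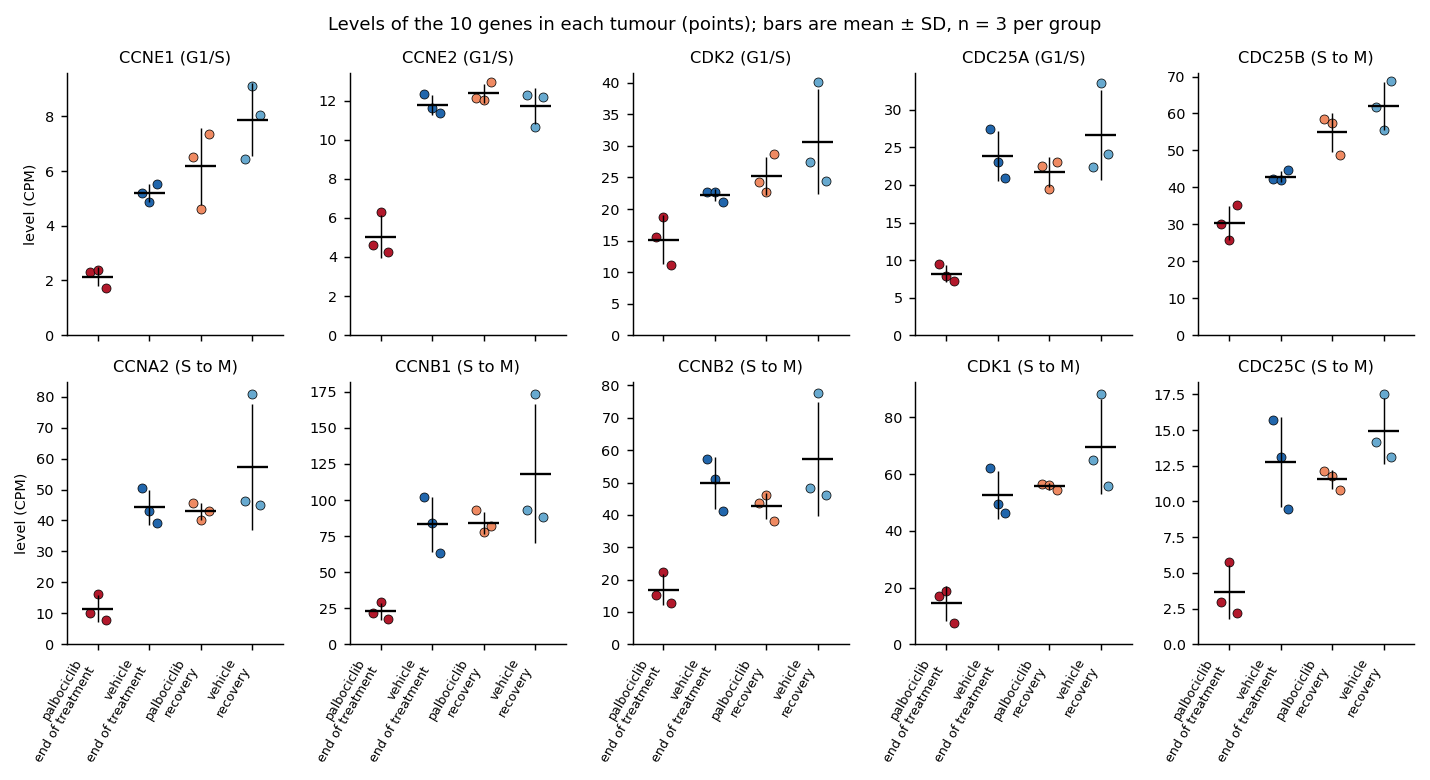
Level of each of the 10 genes in CPM (y axis, from 0) in the 12 tumours (points), with group means and SD (bars, n = 3); groups run from left to right as palbociclib and vehicle at the end of treatment, then palbociclib and vehicle after recovery. The 3 palbociclib tumours at the end of treatment lie below all 3 vehicle tumours of that stage in every panel, and 1 vehicle recovery tumour lies far above its group in CCNA2, CCNB1, CCNB2 and CDK2.

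At the end of treatment 8 of the 10 genes were lower in palbociclib than in vehicle tumours, 2.34-fold (CCNE2) to 3.87-fold (CCNA2), and CDK2 and CDC25B did not pass. The share of all 18628 human genes tested that passed as lower was 1.7%. Passing here means a Benjamini-Hochberg adjusted p under 0.05 over all genes in edgeR's quasi-likelihood test. The median log2 fold change was -1.56 over the 10 genes, -1.25 over the G1/S genes and -1.85 over the S to M genes, against 0.00 over all genes. Since bulk RNA was measured, fewer cells in cycle and less RNA per cell cannot be told apart. In all 10 genes every palbociclib tumour lay below every vehicle tumour, which held for 11.3% of all genes.

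Among the G1/S genes the E cyclins, which activate CDK2 at the entry to S phase, were both lower. CCNE1 had 2.31, 2.37 and 1.73 CPM in palbociclib tumours against 5.18, 4.88 and 5.52 CPM in vehicle tumours. These are 18 to 26 counts against 35 to 60 counts per library, so CCNE1 rests on the fewest counts of the 10 genes. Its log2 fold change was -1.28 ± 0.26 (SE; adjusted p = 0.0186, edgeR), and with the mouse share of each library in the model it was -1.20 and no longer passed (adjusted p = 0.136, edgeR). It also missed the threshold when palbociclib initial library 1 or 3, or any of the 3 vehicle initial libraries, was left out (adjusted p between 0.0574 and 0.133, edgeR).

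CCNE2 had 4.62, 6.28 and 4.23 CPM in palbociclib tumours against 12.4, 11.6 and 11.4 CPM in vehicle tumours. The vehicle tumours were close together and none came near the palbociclib tumours. The log2 fold change was -1.23 ± 0.18 (adjusted p = 0.00179, edgeR). The exons of CCNE2 share 1629 bases, 37.05% of its exon length, with INTS8 on the opposite strand, and the sources used here do not state whether counting used the strand. INTS8 itself, a subunit of the Integrator complex, had a log2 fold change of 0.11 ± 0.12 (adjusted p = 0.878, edgeR).

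CDC25A, the phosphatase that removes inhibitory phosphates from CDK2 and CDK1 and is a target of E2F, had 9.41, 7.83 and 7.22 CPM in palbociclib tumours against 27.5, 23.0 and 21.0 CPM in vehicle tumours. It had the smallest adjusted p of the 10 genes, with a log2 fold change of -1.55 ± 0.18 (adjusted p = 0.000373, edgeR). CDK2, the kinase partner of E and A cyclins, had 15.5, 18.7 and 11.1 CPM in palbociclib tumours against 22.7, 22.8 and 21.1 CPM in vehicle tumours. The groups did not overlap, but the log2 fold change of -0.56 ± 0.21 did not pass (adjusted p = 0.319, edgeR), and its 95% interval ran from -1.004 to -0.11.

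Among the S to M genes, CCNA2, the cyclin of S phase and G2 that pairs with CDK2 and CDK1, had 10.1, 16.4 and 7.99 CPM in palbociclib tumours against 50.4, 43.0 and 39.3 CPM in vehicle tumours. All palbociclib tumours lay far below the vehicle tumours, and the log2 fold change was the lowest of the 10, at -1.95 ± 0.27 (adjusted p = 0.00162, edgeR). CCNA2 shares 9.08% of its exon length with EXOSC9, an exosome subunit on the opposite strand that was itself lower, at -0.57 ± 0.13 (adjusted p = 0.0412, edgeR).

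The B cyclins, which activate CDK1 for mitosis, were both lower. CCNB1 had 21.9, 29.1 and 17.3 CPM in palbociclib tumours against 101.8, 83.8 and 63.6 CPM in vehicle tumours, and a log2 fold change of -1.87 ± 0.28 (adjusted p = 0.00335, edgeR). CCNB2 had 15.4, 22.2 and 12.9 CPM in palbociclib tumours against 57.1, 51.2 and 41.3 CPM in vehicle tumours, and a log2 fold change of -1.57 ± 0.23 (adjusted p = 0.00209, edgeR). A processed copy of CCNB2, CCNB2P1, had 1 to 11 counts per library, and reads could be split between the copies. In CCNA2 and both B cyclins palbociclib library 2 was the highest and library 3 the lowest of its group.

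CDK1, the kinase that drives mitosis, had 17.0, 18.7 and 7.51 CPM in palbociclib tumours against 62.0, 49.6 and 46.2 CPM in vehicle tumours. Its log2 fold change of -1.87 ± 0.27 (adjusted p = 0.00276, edgeR) was the same to 2 decimals as that of CCNB1. CDC25C, a phosphatase that activates CDK1 at mitotic entry, had 2.93, 5.77 and 2.21 CPM in palbociclib tumours against 15.7, 13.1 and 9.46 CPM in vehicle tumours, and a log2 fold change of -1.83 ± 0.29 (adjusted p = 0.0034, edgeR). CDC25C shares 8.78% of its exon length with FAM53C on the opposite strand, which had 436 to 938 counts per library. CDC25B, which acts on CDK1 and cyclin B at the centrosome early in mitosis, had 30.1, 25.9 and 35.1 CPM in palbociclib tumours against 42.3, 41.9 and 44.6 CPM in vehicle tumours. It was the one CDC25 gene that did not pass, at -0.50 ± 0.13 (adjusted p = 0.0867, edgeR; 95% interval -0.78 to -0.22), and it passed with DESeq2 (adjusted p = 0.0304) and in edgeR without vehicle recovery library 2 (adjusted p = 0.0178).

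**Figure D3:**
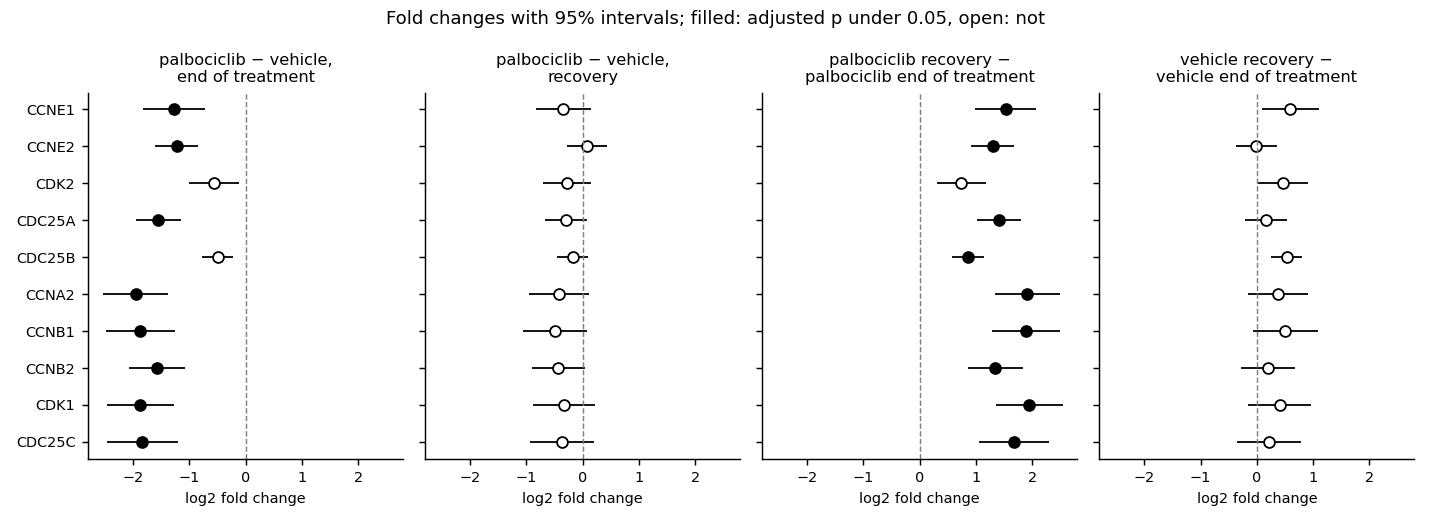
Log2 fold changes (points) with 95% intervals (lines) of the 10 genes in 4 comparisons; filled points passed at an adjusted p under 0.05 in edgeR and open points did not. In the first panel all points lie left of 0 with CDK2 and CDC25B nearest to it, in the second they lie between -0.49 and 0.08, and in the third all lie right of 0.

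Without vehicle initial libraries 2 and 3, the ones with high mitochondrial shares, 6 of the 10 genes passed, since CCNE1 (adjusted p = 0.31) and CCNE2 (adjusted p = 0.0544) did not in edgeR, while all kept their direction. That fit leaves 1 vehicle tumour at this stage, assumed to vary like the other groups. The summed tumour epithelium markers of every palbociclib tumour of this stage lay above those of every vehicle tumour. KRT5 alone had 1459 to 1914 CPM in palbociclib tumours against 976.1 to 1054 CPM in vehicle tumours, and KRT14 and CDH1 also lay higher without overlap, while EPCAM, KRT8, KRT18 and TP63 overlapped and the last 3 of these had lower means in palbociclib tumours. The part of these markers and of PECAM1 in the result was not tested. Without the 3 vehicle tumours numbered apart, 9 of the 10 genes passed, with CDC25B added (adjusted p = 0.0373, edgeR).

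Genes that control these kinases were counted from a list of 48 regulators, all tested. At the end of treatment 12 were lower and 1 was higher, against 1.7% and 0.14% of all genes, and 35 did not pass. Over the list the median log2 fold change was -0.21, against 0.00 over all genes. Of the kinases that inhibit CDK1 and CDK2 by phosphorylation, WEE1 was lower, with 36.4, 34.0 and 31.8 CPM in palbociclib tumours against 71.2, 73.0 and 70.7 CPM in vehicle tumours. Its log2 fold change was -1.07 ± 0.12 (adjusted p = 0.000213, edgeR), and the values within each group lay close together. PKMYT1, the other one, was at -0.62 ± 0.21 (adjusted p = 0.231, edgeR).

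Of 12 transcription factors on the list 3 were lower, the E2F family member E2F1 at -1.27 ± 0.27, MYBL2 at -1.61 ± 0.28 and FOXM1 at -1.53 ± 0.21, with adjusted p of 0.0219, 0.00821 and 0.00109 in edgeR. E2F1 passed in 17 of 22 alternatives, MYBL2 in 19 and FOXM1 in 21. With the mouse share in the model E2F1 and MYBL2 did not pass (adjusted p = 0.167 and 0.0682, edgeR). E2F2 did not pass, with 0.38 to 0.62 CPM in palbociclib tumours against 0.88 to 1.90 CPM in vehicle tumours, without overlap. These were 15 and 40 counts in all. The NF-Y subunits NFYA, NFYB and NFYC did not pass, at 0.09, 0.13 and 0.05. Of 9 genes that control CDC25 and mitotic entry 4 were lower. PLK1, the mitotic kinase that turns on CDC25C, had the lowest value of the list, at -2.39 ± 0.31 (adjusted p = 0.000718, edgeR), with 3.55, 3.71 and 3.56 CPM in palbociclib tumours against 19.1, 21.9 and 15.8 CPM in vehicle tumours. AURKA, the kinase that activates PLK1, was at -1.88 ± 0.30, its cofactor BORA at -1.13 ± 0.20 and the checkpoint kinase CHEK1 at -0.74 ± 0.17, with adjusted p of 0.00463, 0.00795 and 0.038 in edgeR.

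Of 7 genes of cyclin and CDC25 turnover, CCNF, CDC20 and FBXO5 were lower. CCNF, the F-box protein also called cyclin F, had 8.52, 9.99 and 6.93 CPM in palbociclib tumours against 29.03, 25.9 and 27.1 CPM in vehicle tumours, and a log2 fold change of -1.69 ± 0.17 (adjusted p = 0.000114, edgeR). CDC20, which directs the destruction of B cyclins at anaphase, was at -1.84 ± 0.40 and FBXO5 at -1.25 ± 0.26 (adjusted p = 0.0396 and 0.0233, edgeR). The ubiquitin ligase subunit for E cyclins, FBXW7, did not pass, at 0.13 ± 0.10 (adjusted p = 0.788, edgeR).

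Subunits and inhibitors that bind the kinases did not pass. The CKS subunits CKS1B and CKS2 were at -0.46 and -0.74, and the CIP/KIP inhibitors CDKN1A, CDKN1B and CDKN1C at -0.06, -0.21 and -0.76, with adjusted p between 0.186 and 0.972 in edgeR. CKS2 passed in 3 of 22 alternatives and kept its direction in all of them. The sign of CDKN1A turned with 4 of the alternatives tried, so no direction is given for it. Upstream, CCND1, a D cyclin partner of the drug's targets, was the 1 gene that passed as higher, at 0.79 ± 0.12 (adjusted p = 0.00199, edgeR). CCND2, another D cyclin, had 52.6 to 90.7 CPM in palbociclib tumours against 13.7 to 41.3 CPM in vehicle tumours. It did not pass, though the groups did not overlap. The mean of CCND3, also a D cyclin, was lower, at 27.5 against 30.2 CPM, and did not pass. The pocket protein RBL1 was lower, at -1.06 ± 0.19 (adjusted p = 0.00821, edgeR). The number of regulators that passed was 6 with the mouse share in the model, 4 without vehicle initial libraries 2 and 3, and 6 to 18 when a library was left out, lowest without palbociclib initial library 1 and highest without vehicle recovery library 2. WEE1, CCNF and PLK1 passed in each of 22 alternatives, while CDC20 and CHEK1 each passed in 10.

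**Figure D4:**
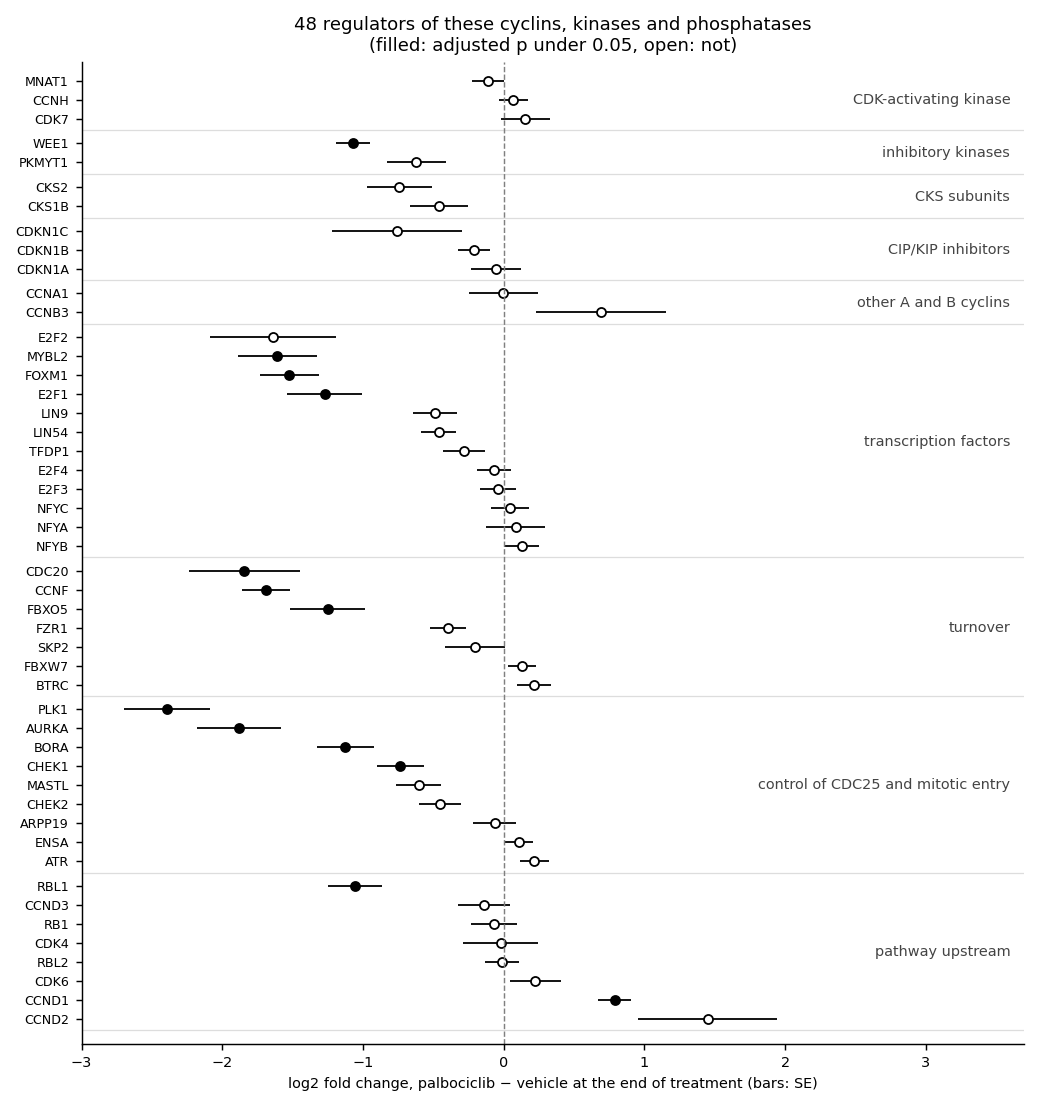
Log2 fold changes of 48 regulators between palbociclib and vehicle tumours at the end of treatment (points, with SE), by role; filled points passed in edgeR. The filled points lie at or left of -0.74 except CCND1 at 0.79.

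After recovery none of the 10 genes passed between tumours that had received palbociclib and those that had received vehicle. In edgeR 0 of 10 passed and 0 had an unadjusted p under 0.05, against 8.66% of all genes, and DESeq2 called 0. Of 18628 genes 1 passed in this comparison, or 0.00537%. The log2 fold changes ran from -0.49 (CCNB1) to 0.08 (CCNE2), with a median of -0.34 against 0.00 over all genes, and the adjusted p from 0.578 to 0.878. The 95% intervals of the 10 genes spanned -1.06 to 0.44, so differences as low as -1.06 in CCNB1 or as high as 0.44 in CCNE2 lay within their intervals.

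CCNE1 had 6.52, 4.63 and 7.36 CPM in palbociclib recovery tumours against 6.46, 9.11 and 8.04 CPM in vehicle recovery tumours. CCNE2 had 12.1, 12.04 and 12.9 CPM in palbociclib recovery tumours against 12.3, 10.6 and 12.2 CPM in vehicle recovery tumours. CDC25A had 22.6, 19.4 and 23.1 CPM in palbociclib recovery tumours against 22.4, 33.6 and 24.1 CPM in vehicle recovery tumours. The groups overlapped in all G1/S genes. CDK2 had 24.2, 22.8 and 28.7 CPM in palbociclib recovery tumours against 27.5, 40.1 and 24.4 CPM in vehicle recovery tumours.

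CCNA2 had 45.7, 40.1 and 43.2 CPM in palbociclib recovery tumours against 46.2, 80.9 and 45.1 CPM in vehicle recovery tumours. CCNB1 had 92.8, 77.6 and 82.2 CPM in palbociclib recovery tumours against 93.1, 173.7 and 87.9 CPM in vehicle recovery tumours. In both genes vehicle recovery library 2 lay far above the other 5 tumours. CDK1 had 56.6, 56.2 and 54.2 CPM in palbociclib recovery tumours against 65.0, 88.3 and 55.8 CPM in vehicle recovery tumours. CDC25B had 58.4, 57.3 and 48.8 CPM in palbociclib recovery tumours against 61.8, 55.6 and 68.7 CPM in vehicle recovery tumours. For CDK1 and CDC25B the groups overlapped.

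CCNB2 and CDC25C were lower in every palbociclib recovery tumour than in every vehicle recovery tumour, which held for 5.51% of all genes. CCNB2 had 43.7, 46.013 and 38.2 CPM in palbociclib recovery tumours against 48.3, 77.7 and 46.04 CPM in vehicle recovery tumours. CDC25C had 12.1, 11.8 and 10.8 CPM in palbociclib recovery tumours against 14.1, 17.5 and 13.1 CPM in vehicle recovery tumours. Neither passed, at -0.43 ± 0.22 and -0.37 ± 0.27 (adjusted p = 0.578 and 0.636, edgeR). In CCNB2 the groups all but touched, at 46.013 CPM in palbociclib library 2 and 46.04 CPM in vehicle library 3.

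Without vehicle recovery library 2 the log2 fold changes of 9 of the 10 genes came closer to 0, for example to -0.09 in CCNA2 and -0.10 in CCNB1, while CDC25B moved to -0.25. The mouse share also differed between these groups without overlap. With it in the model the value turned positive for CDK1, at 0.18, and for CDC25C, at 0.01. Without the 3 vehicle tumours numbered apart, which leaves 1 vehicle recovery tumour, CDK1 was at 0.0026 and CDK2 at 0.06. None of the 48 regulators passed after recovery in edgeR, where 1 had an unadjusted p under 0.05, against 8.66% of all genes. DESeq2 called 0, and edgeR with no low-count filter called 1, which was lower.

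Whether the effect itself changed between the stages was tested as the effect after recovery minus the effect at the end of treatment. Of the 10 genes only CCNE2 passed, at 1.31 ± 0.25 (adjusted p = 0.0495, edgeR), against 0.22% of all genes, which were 41 genes, all positive. The value lay at the threshold. It passed in 7 of 21 alternatives and not without the vehicle tumours numbered apart (adjusted p = 0.237, edgeR). With the scaling called RLE the adjusted p was 0.0617, and when a library was left out it passed without palbociclib initial library 2 or vehicle recovery library 2 and not without any of the other 10 (adjusted p between 0.111 and 0.201, edgeR). All 10 differences were positive, against 51.3% of all genes, and ran from 0.27 (CDK2) to 1.54 (CDK1), and 8 of 10 had an unadjusted p under 0.05, against 5.22% of all genes. Without vehicle recovery library 2 the adjusted p fell under 0.05 for CCNE2, CDC25A, CCNA2, CCNB1 and CCNB2 (0.0151, 0.00127, 0.00384, 0.013 and 0.0096 in edgeR). The 2 comparisons of this difference share no tumours.

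On release from palbociclib, that is in palbociclib recovery against palbociclib tumours at the end of treatment, 9 of the 10 genes were higher, against 2.36% of all genes that passed as higher. In all 10 genes every recovery tumour lay above every tumour at the end of treatment, which held for 14.9% of all genes. This comparison shares its tumours with the 2 treatment comparisons above, so it is no separate support for them. The median log2 fold change was 1.47, with 1.35 over the G1/S genes and 1.78 over the S to M genes, against -0.01 over all genes.

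The largest value was that of CDK1, at 1.95 ± 0.27, or 3.86-fold (adjusted p = 0.00203, edgeR). CCNA2 was at 1.91 ± 0.27, CCNB1 at 1.89 ± 0.28, CDC25C at 1.68 ± 0.29 and CCNB2 at 1.34 ± 0.23, with adjusted p between 0.00174 and 0.00567 in edgeR. Of the G1/S genes, CCNE1 was at 1.53 ± 0.25, CDC25A at 1.41 ± 0.18 and CCNE2 at 1.295 ± 0.18 (adjusted p = 0.00405, 0.000676 and 0.000976, edgeR). CDC25B was higher here by 0.85 ± 0.13 (adjusted p = 0.00246, edgeR), while its effect at the end of treatment had not passed. CDK2 again did not pass, at 0.74 ± 0.21 (adjusted p = 0.0797, edgeR), and passed with DESeq2 (adjusted p = 0.034) and in edgeR without vehicle recovery library 2 (adjusted p = 0.00572). In vehicle tumours between the same stages CDC25B was at 0.53 and CDK2 at 0.47, neither of which passed. The difference between the effects was 0.32 for CDC25B and 0.27 for CDK2, and passed for neither gene in any of 21 alternatives. CDC25C missed the threshold without palbociclib initial library 1 (adjusted p = 0.0518, edgeR). Of the 48 regulators 16 were higher and 1, CCND1, was lower, against 2.36% and 0.467% of all genes. The number that passed, 17, was 11 without vehicle initial libraries 2 and 3 and 7 to 19 when a library was left out. It was 7 to 11 without a palbociclib initial library or without palbociclib recovery library 1 or 2. No regulator passed as lower without palbociclib initial library 2 or 3, palbociclib recovery library 1 or 2, or vehicle initial library 3.

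In vehicle tumours, recovery against end of treatment, 0 of the 10 genes passed in edgeR, where 0 of all genes (0%) did. At an unadjusted p under 0.05 there were 3 of 10, against 14.4% of all genes, and DESeq2 called 1, CDC25B. CCNE1, CDK2 and CDC25B were higher in every vehicle recovery tumour than in every vehicle tumour at the end of treatment, which held for 6.7% of all genes. CDC25B, for which the values are given above, averaged 62.0 ± 6.57 CPM in vehicle recovery tumours and 42.9 ± 1.48 CPM in vehicle tumours at the end of treatment (SD, n = 3 each), a log2 fold change of 0.53 ± 0.13 (adjusted p = 0.271, edgeR). None of the regulators passed in edgeR, 6 of 48 had an unadjusted p under 0.05, and DESeq2 called 0, while edgeR with no low-count filter called 3, all higher.

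Ratios of counts between member genes of a library do not depend on library scaling, and were set out as a description. CDK1 over CDK2 was 1.10, 1.00 and 0.68 in palbociclib tumours against 2.73, 2.18 and 2.19 in vehicle tumours at the end of treatment, and 2.33, 2.47 and 1.89 in palbociclib against 2.37, 2.20 and 2.29 in vehicle tumours after recovery. The palbociclib tumours at the end of treatment thus stood below the other 9 tumours. CCNA2 over CCNE2 was 2.19, 2.61 and 1.89 in palbociclib tumours against 4.08, 3.699 and 3.46 in vehicle tumours at the end of treatment, and 3.77, 3.33 and 3.33 in palbociclib against 3.76, 7.60 and 3.702 in vehicle tumours after recovery. The same 3 tumours were lowest, and vehicle recovery library 2 was highest. CCNB1 over CCNE1 was 9.50, 12.3 and 10 in palbociclib tumours against 19.6, 17.2 and 11.5 in vehicle tumours at the end of treatment, and 14.2, 16.8 and 11.2 in palbociclib against 14.4, 19.1 and 10.9 in vehicle tumours after recovery. Here the groups overlapped. Other pairs were not set out, and these do not stand for all S to M and G1/S genes. CDC25B, an S to M gene, had a log2 fold change of -0.50 at the end of treatment, against -1.55 for CDC25A, a G1/S gene.

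**Figure D5:**
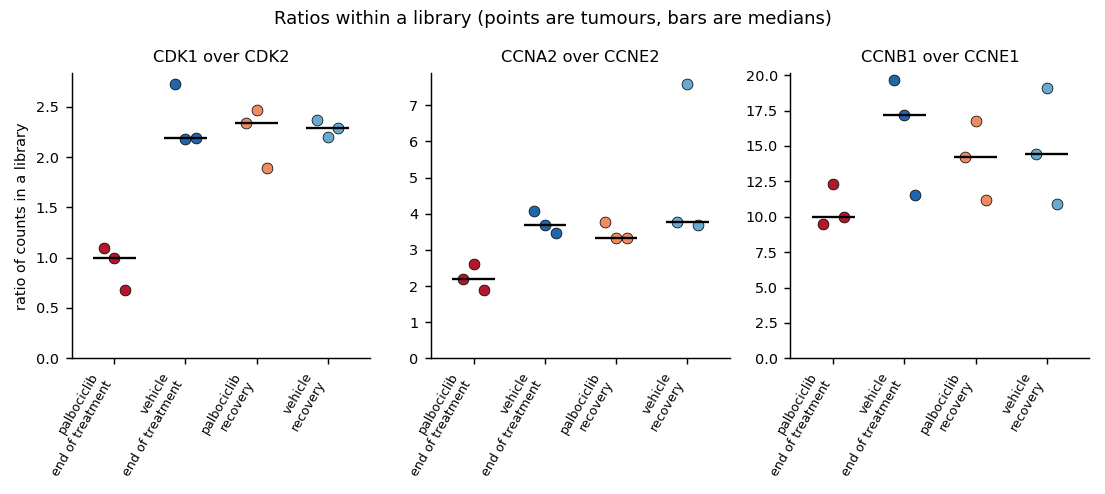
Ratio of counts, for 3 chosen pairs, of an S to M gene over a G1/S gene within each of the 12 libraries (points, with medians as bars, y axis from 0). For CDK1 over CDK2 and CCNA2 over CCNE2 the 3 palbociclib tumours at the end of treatment lie below the other 9, and for CCNB1 over CCNE1 the groups overlap.

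Across the 12 libraries Pearson's r of log2 CPM was 0.99 between CCNA2 and CCNB1 and 0.98 between CCNB1 and CCNB2, while CDC25B had values with the other 9 genes between 0.65 (CDK2) and 0.84 (CCNE1). Among pairs without CDC25B the lowest was 0.80, for CCNE2 with CDK2. Among 10945 genes with a mean log2 CPM of at least 3, the nearest to CCNB1 outside the 10 genes were MYBL2 (0.99), CDCA8, CEP55, DEPDC1B and H2AFX. The nearest to CCNE1, again outside the 10, were ORC1 (0.97), CCNF, TACC3, HJURP and BAZ1B. Those nearest to CDK2 were HIST2H2AC (0.98), MAD2L1 and DEK. Without vehicle recovery library 2, r was 0.99 for CCNB1 with MYBL2, 0.96 for CCNE1 with ORC1 and 0.97 for CDK2 with HIST2H2AC over 11 libraries, and it was 0.995 against 0.938 with all libraries for CCNE2 with CCNA2. These are descriptions, since all libraries share the 4 groups.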

How the data were processed

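RNA was sequenced from 12 tumours. Per the labels' protocols, RNA came from homogenised tumours (RNeasy) and went into TruSeq RNA libraries. The files deposited by the authors hold unnormalised counts for Ensembl identifiers of both species. The submitters' processing notes list the tools CASAVA 1.8, STAR, cutadapt and edgeR and the builds GRCm38 and GRCh38. The sources used here do not name the counting program or say whether it used the strand. The 4 rows that name no gene held 37.0% to 69.1% of a library and were left out, as were 713 repeated rows. Symbols came from GENCODE 29.

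Human genes were tested with edgeR 4.0.16 in R 4.3.3, with TMM scaling, filterByExpr (count at least 10, total at least 15), and 1 quasi-likelihood model of all 12 libraries with 4 group means. Passing means a Benjamini-Hochberg adjusted p under 0.05 over 18628 genes. Levels are CPM, each count scaled to the library's total human count times its TMM factor. Levels per length used the summed exon length of GENCODE 29. DESeq2 1.42.0 was an alternative. The other alternatives were the scalings RLE and upper quartile, no or a stricter low-count filter, fits of the compared groups alone, mitochondrial genes left out, the mouse share as a covariate, and libraries left out, among them, added after the data were seen, the 3 vehicle tumours numbered apart. The steps were tested on simulated counts. Mouse counterparts of the 10 genes were not analysed here. The genes described, the list of 48 regulators and the alternatives were chosen with earlier results of these data known. The 10 genes, the inhibitory kinases WEE1 and PKMYT1, the CKS subunits and the CIP/KIP inhibitors were to be named whatever their result. Of the other regulators, those that passed at the end of treatment were to be named. E2F2, the NF-Y subunits, FBXW7, CCND2 and CCND3 are named too, though they did not pass. The genes INTS8, EXOSC9, FAM53C and CCNB2P1 were added after the data were seen, because they overlap or resemble members.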

Additional observations from a re-analysis of the deposited data

Results flagged for a closer look

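In edgeR's test of the difference itself (effect after recovery minus effect at the end of treatment), 1 of the 10 genes and 2 of the 48 regulators passed. Of all genes 0.22% did (41 of 18628). CCNE2 differed by 1.31 on the log2 scale (adjusted p = 0.0495, edgeR), with an effect of 0.08 after recovery and of -1.23 at the end of treatment, and passed in 7 of 21 alternatives. CDK1, CCNA2, CDC25C and CCNB1 had larger differences, at 1.54, 1.53, 1.46 and 1.38, and did not pass. WEE1 differed by 1.11 ± 0.16 (adjusted p = 0.0118) and passed in 17 of 21 alternatives. CCNF differed by 1.53 ± 0.23 (adjusted p = 0.0135) and passed in 15 of 21 alternatives. No cause of these differences was tested.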

How the results depend on the processing

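No paired analysis was possible because the labels give no number shared between groups. Scalings moved the median of all genes by less than 0.1 (log2) in every comparison. At the end of treatment the number of human genes that passed, 343, was 530 with DESeq2, 753 with no low-count filter, 689 with only the compared groups, 147 with the mouse share, 95 without vehicle initial libraries 2 and 3, 971 without the 3 vehicle tumours numbered apart, and 160 to 748 when a library was left out, highest without vehicle recovery library 2 and lowest without palbociclib initial library 1. The number of the 10 genes that passed there ran from 6 to 9. After recovery the gene count of 1 was 20 with DESeq2, 794 with no filter, 0 with only the compared groups, with the mouse share and without vehicle initial libraries 2 and 3, and 0 to 3 when a library was left out. For the difference the gene count of 41 was 62 with upper quartile scaling, 104 with DESeq2, 320 with no filter, 4 without vehicle initial libraries 2 and 3, and 12 to 161 when a library was left out, and the 1 member that passed became 0 with RLE, 4 with DESeq2, 7 with no filter, 2 with the mouse share, 0 without vehicle initial libraries 2 and 3 or without the tumours numbered apart, and 0 to 5 when a library was left out. On release the gene count of 526 was 824 with DESeq2, 1147 with no filter, 1616 with only the compared groups, 339 without vehicle initial libraries 2 and 3, 1552 without the tumours numbered apart, and 205 to 1425 when a library was left out. In vehicle tumours over time the gene count of 0 was 1 with RLE, 83 with DESeq2, 1124 with no filter, 1 without mitochondrial genes, 5 without the tumours numbered apart and 0 to 6 when a library was left out, and 1 member passed with DESeq2 and 2 with no filter. The causes of these shifts were not tested.

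Some signs turned. At the end of treatment CDKN1A was 0.021 with the mouse share and 0.154 without vehicle initial libraries 2 and 3, and ranged from -0.149 to 0.117 when a library was left out. After recovery, with the mouse share, CDK1 was 0.18 and CDC25C 0.0128, and without the tumours numbered apart CDK1 was 0.0026 and CDK2 0.0555. Over time CCNE2 was 0.0088 with RLE, 0.0061 with DESeq2, 0.0123 with no filter and 0.0866 without the tumours numbered apart, where CCNB2 was -0.0074, and CCNE2 ranged from -0.0457 to 0.0529 when a library was left out. Over time, too, CDC25A was -0.0341 and CDC25C -0.0671 without vehicle initial libraries 2 and 3, and when a library was left out CDC25A ranged from -0.0446 to 0.285 and CCNB2 from -0.0852 to 0.35, both lowest without vehicle recovery library 2. CCNE1, at 18 to 95 counts a library, is the member most limited by depth.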
